A study of Mus musculus with 20 samples.

Results

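Transcripts of 10 heat shock proteins of the cytosol and mitochondria were followed in mouse liver: Hspa1a, Hspa1b, Hspa8, Hsph1, Dnaja1, Dnajb1, Hsp90aa1, Hspd1, Hspe1 and Hspb1. They were taken by symbol from a table of 48440 genes, in which each of the 10 had 1 row, and all 10 were among the 16071 genes that passed the filter on low counts. The livers came from wild-type female C57BL/6 mice (C57BL/6J in the study's methods), 8 weeks old at the start, which were treated for 5 weeks and fell into 4 groups of 5. The study crossed corticosterone (CORT), the main glucocorticoid of rodents, given to model Cushing's syndrome, with a neutralizing antibody (αACBP) against acyl-CoA-binding protein (ACBP, also called DBI), a lipid-binding protein that is also released from cells. Without CORT the groups were Isotype + Vehicle and αACBP + Vehicle, and with it Isotype + CORT and αACBP + CORT, where CORT or its vehicle was in the drinking water and the monoclonal αACBP or a control IgG2a (isotype) was injected into the peritoneum. No group was free of injected antibody, so each αACBP group was set against mice that also received an antibody. RNA of whole liver tissue was sequenced, 1 library per mouse.

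Heat shock proteins are chaperones: they bind unfolded proteins, keep them from clumping and help them fold, be carried to an organelle or be degraded. When unfolded proteins accumulate, heat shock factor 1 (HSF1) is set free from chaperones, forms trimers and binds heat shock elements, which are inverted repeats of the motif GAA, in front of these genes. In liver many of these transcripts also rise and fall over the day with feeding and body temperature, and HSP90 with its co-chaperones holds the glucocorticoid receptor ready to bind its hormone.

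The 10 genes were chosen as HSF1 targets, so heat shock elements in their promoters describe that choice and are not a separate result. RefSeq promoter sequences (build GRCm38.p6) were matched for 8 of the 10 genes, all but Hspa8 and Hsp90aa1. A heat shock element was searched as 2 facing units, GAANNTTC or TTCNNGAA, each of which reads the same on both strands, or as 3 units, GAANNTTCNNGAA or its reverse complement TTCNNGAANNTTC, which contain the 2-unit forms. The window was the 250 bases before each annotated start site. A 2-unit element was present in at least 1 promoter of 7 of the 8 genes, against 14.5% of 27025 genes and 12.8% of 32851 promoters. These 7 are not independent, since Hspd1 and Hspe1 share 1 interval and the Hspa1a and Hspa1b promoters are nearly the same. The 3-unit element was present in front of Hspd1 and Hspe1, against 0.466% of all promoters. Dnajb1 held none in this window. The promoters below were chosen as 1 for each kind of chaperone described, with the elements in capitals. Each is read 5′ to 3′ toward its gene and ends 1 base before the start site, except the Hspd1-Hspe1 interval, which is the 215 bases between both start sites.
Hspa1a: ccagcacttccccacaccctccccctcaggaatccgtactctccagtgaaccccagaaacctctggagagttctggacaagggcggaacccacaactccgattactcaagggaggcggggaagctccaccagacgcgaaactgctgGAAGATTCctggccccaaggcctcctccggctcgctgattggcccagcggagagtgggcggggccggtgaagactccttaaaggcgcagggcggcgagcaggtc
Hsph1: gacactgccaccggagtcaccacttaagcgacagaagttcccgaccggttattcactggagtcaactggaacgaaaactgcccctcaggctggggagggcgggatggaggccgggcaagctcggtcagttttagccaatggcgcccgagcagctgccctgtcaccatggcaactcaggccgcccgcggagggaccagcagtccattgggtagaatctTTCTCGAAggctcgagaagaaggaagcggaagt
Dnaja1: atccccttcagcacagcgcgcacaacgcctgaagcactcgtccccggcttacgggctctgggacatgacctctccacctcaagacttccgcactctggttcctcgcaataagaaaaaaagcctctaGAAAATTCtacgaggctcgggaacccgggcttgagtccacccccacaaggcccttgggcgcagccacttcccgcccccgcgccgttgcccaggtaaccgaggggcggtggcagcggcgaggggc
Hspd1-Hspe1: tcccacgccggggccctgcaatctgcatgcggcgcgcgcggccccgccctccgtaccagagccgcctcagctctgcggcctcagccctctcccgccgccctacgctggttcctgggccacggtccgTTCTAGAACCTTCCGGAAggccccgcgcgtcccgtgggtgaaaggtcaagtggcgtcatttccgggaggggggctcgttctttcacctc
Hspb1: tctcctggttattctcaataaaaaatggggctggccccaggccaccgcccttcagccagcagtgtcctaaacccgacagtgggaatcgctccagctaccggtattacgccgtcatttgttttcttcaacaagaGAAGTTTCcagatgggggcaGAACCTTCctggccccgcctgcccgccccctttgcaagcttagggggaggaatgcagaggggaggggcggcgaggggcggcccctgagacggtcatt

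These stretches lie at chr17:34972157-34972406 on the minus strand (Hspa1a), chr5:149636337-149636586 on the minus strand (Hsph1), chr4:40722218-40722467 on the plus strand (Dnaja1), chr1:55087933-55088147 shown on the plus strand (Hspd1-Hspe1) and chr5:135887669-135887918 on the plus strand (Hspb1). Hspd1 and Hspe1 are transcribed away from each other, so 1 interval and 1 block of elements stands before both. Counted back from the Hspe1 start site, that block runs from base 89 to base 72 and holds TTCTAGAA, GAACCTTC and TTCCGGAA overlapping one another, which together contain both 3-unit forms. The first base of the element lay 104 bases before the start site in Hspa1a, 124 in Dnaja1 and 33 in Hsph1, and Hspb1 had a pair, whose first bases lay 117 and 97 bases before it. For Dnaja1 and Hsph1, which have more than 1 annotated start site, the most upstream was used. The windows of the other Dnaja1 start sites, at 40722922 and 40722930, held 0 heat shock elements. So did that of a further Hspd1 start site, at 55088243. The Hspa1b promoter had the same element at the same distance as Hspa1a, and the sequences of both differed at 3 of 250 bases. A match to these letters describes the sequence and does not show that a factor was bound. The palindrome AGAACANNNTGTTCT, a strict form of the glucocorticoid receptor's binding site, was present in 0.00913% of all promoters and in none of the 8 genes' windows.

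Levels are given as CPM, the counts of a gene per 1000000 counts on genes, scaled by TMM, a correction for differences in RNA composition, in the order of liver 1 to 5 of each group. These numbers only name livers. Each library had between 14934926 and 20299999 counts on genes, at which 3 counts correspond to 0.145 to 0.205 CPM. All 8 hepatocyte markers passed the filter, and their summed level was 73412 to 148808 CPM in 19 livers and 40417 CPM in αACBP + Vehicle liver 5. Changes are log2 differences of group means with their standard error (SE), from the quasi-likelihood test of edgeR with all 20 livers in 1 model. A gene was called when its p-value, adjusted over all 16071 genes by the Benjamini-Hochberg method, was at most 0.05 and the change was at least 1 on the log2 scale. In whole tissue, fewer cells of a type cannot be told apart from less RNA per cell.

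**Figure D1:**
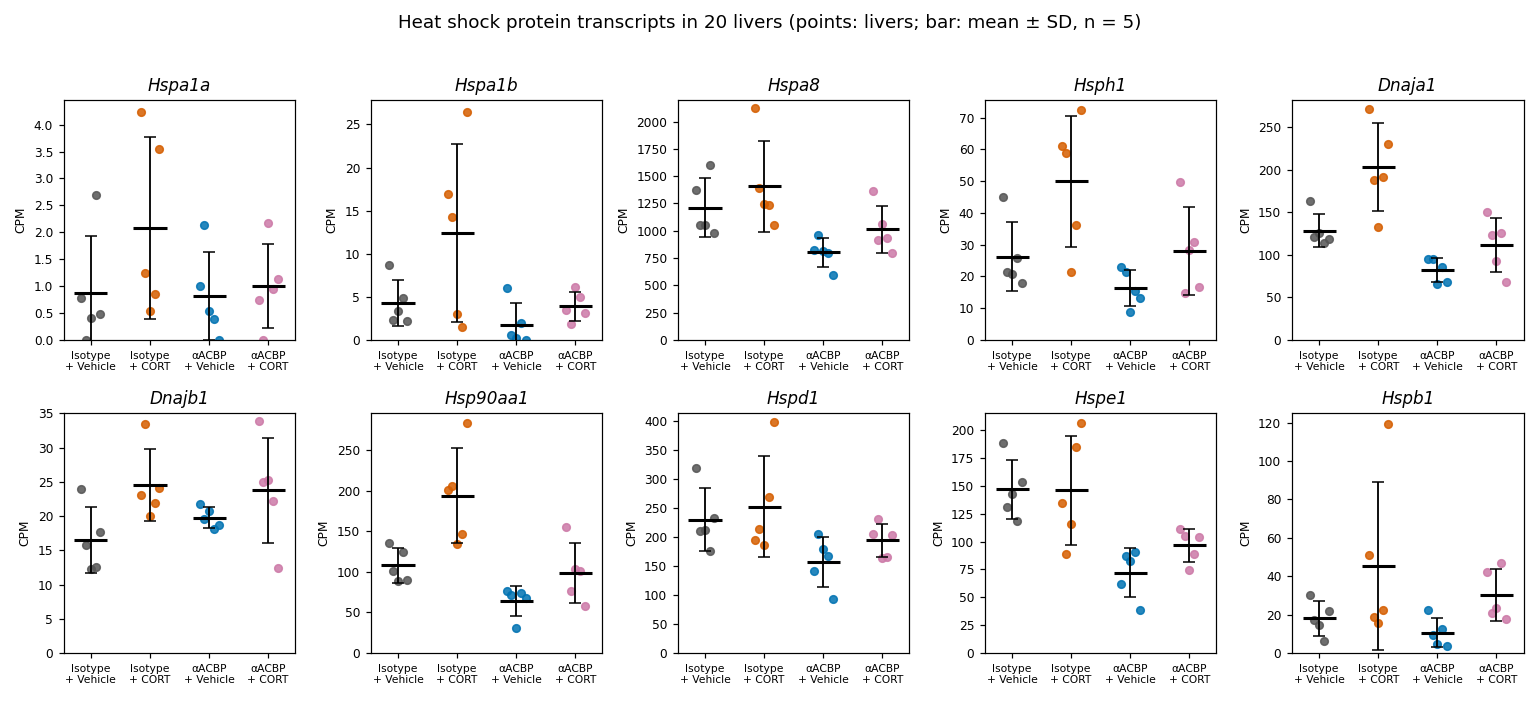
CPM (vertical axes, starting at 0, 1 scale per gene) of the 10 transcripts in the 4 groups, where points are livers, the thick line is the mean and the bar the SD (n = 5). αACBP + Vehicle livers lie lowest in most panels, with Hspe1 at 38.9 to 90.8 against 118 to 188 CPM in Isotype + Vehicle.

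The constitutive HSP70 was by far the most abundant. Per kilobase of its canonical transcript, mean levels in Isotype + Vehicle were 506 CPM per kb for Hspa8, 189.5 for Hspe1, 94.8 for Hspd1, 30.6 for Hsp90aa1, 23.1 for Dnaja1, 19.7 for Hspb1, 4.66 for Dnajb1, 4.24 for Hsph1, 1.54 for Hspa1b and 0.294 for Hspa1a. The neighbours Dnaja1 and Hspb1 (SD 3.56 and 9.82), and the neighbours Dnajb1 and Hsph1 (SD 1.36 and 1.76), did not differ beyond their spread. The transcript lengths come from an annotation other than the one used for counting, so this order is approximate.

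Of the mitochondrial chaperonin, 1 subunit was called. Hspe1 (ENSMUSG00000073676.4, chromosome 1) encodes HSP10, the lid of the folding chamber that HSP60 forms in the matrix. Hspe1 levels were 188, 131, 142.5, 118 and 154 CPM in Isotype + Vehicle and 61.8, 86.8, 82.5, 90.8 and 38.9 CPM in αACBP + Vehicle. Under CORT they were 135, 88.7, 115, 185 and 207 CPM with isotype and 111, 105, 74.6, 88.5 and 104 CPM with αACBP. Without CORT every αACBP liver lay below every isotype liver, and with CORT the groups overlapped. Hspe1 was the only transcript of the 10 to be called in any comparison of 2 groups: with αACBP it fell by 1.02 (SE 0.221) on the log2 scale in vehicle mice, to 0.492 of the isotype level, with an adjusted p of 0.00972. Of all genes tested, 1.3% were called in that comparison, with 0.616% of all genes called in the lower direction. Its adjusted p stayed at 0.0415 or lower whichever liver was left out, but the change was then under the fold limit, and so not called, without Isotype + Vehicle liver 1 (-0.92), αACBP + Vehicle liver 1 (-0.97) or αACBP + Vehicle liver 5 (-0.87). Under CORT the difference was -0.60 (SE 0.219, adjusted p = 0.214).

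Hspd1 (ENSMUSG00000025980.14, chromosome 1) encodes HSP60, the barrel of the same chamber. Hspd1 levels were 318.5, 209.5, 212, 175 and 233 CPM in Isotype + Vehicle and 142, 204, 179, 167 and 92.4 CPM in αACBP + Vehicle. They were 195, 213, 186, 269 and 398 CPM in Isotype + CORT and 204, 231, 164, 166 and 204 CPM in αACBP + CORT. All 4 groups overlapped, and the lowest liver of the 20 was αACBP + Vehicle liver 5 for both chaperonin subunits. The antibody difference for Hspd1 was -0.55 (SE 0.214, adjusted p = 0.127) in vehicle mice. The CORT differences under isotype were 0.14 (SE 0.213, adjusted p = 0.858) for Hspd1 and -0.01 (SE 0.218, adjusted p = 0.996) for Hspe1, with 95% intervals from -0.30 to 0.57 and from -0.45 to 0.44.

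Hsp90aa1 and Dnaja1 had their highest means in Isotype + CORT and their lowest in αACBP + Vehicle. Hsp90aa1 (ENSMUSG00000021270.13, chromosome 12) encodes the stress-inducible cytosolic HSP90α, which matures kinases and steroid receptors. Hsp90aa1 levels were 136, 101, 88.45, 125 and 89.6 CPM in Isotype + Vehicle and 200.4, 206, 134, 147 and 283 CPM in Isotype + CORT. With αACBP they were 76.6, 71.6, 30.7, 73.4 and 68.0 CPM under vehicle and 156, 76.7, 103, 101 and 58.3 CPM under CORT. Of the Isotype + CORT livers 4 of 5 were above every vehicle liver, αACBP + CORT liver 1 lay among them, and every αACBP + Vehicle liver lay below every Isotype + Vehicle liver. With edgeR none of the 4 simple comparisons passed the test: 0.85 (SE 0.249, adjusted p = 0.0595) for CORT under isotype, 0.63 (SE 0.249, adjusted p = 0.273) for CORT under αACBP, -0.75 (SE 0.249, adjusted p = 0.0728) for αACBP under vehicle and -0.97 (SE 0.25, adjusted p = 0.0547) for αACBP under CORT. With DESeq2 all but CORT under αACBP passed the adjusted p, at 0.0276 for CORT under isotype, 0.0395 for αACBP under vehicle and 0.0113 for αACBP under CORT. With edgeR on only the groups compared, CORT under isotype was at 0.0435, αACBP under vehicle at 0.0454 and αACBP under CORT at 0.117. With voom these were at 0.112, 0.0373 and 0.2. All of these changes were under the fold limit.

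Dnaja1 (ENSMUSG00000028410.13, chromosome 4) encodes a J-domain protein, which hands unfolded clients to HSP70 and starts its ATPase cycle. Dnaja1 levels were 163, 122, 126, 113.5 and 119 CPM in Isotype + Vehicle and 272, 188, 133, 192 and 230.4 CPM in Isotype + CORT. With αACBP they were 94.8, 95.3, 65.5, 86.2 and 68.0 CPM under vehicle and 149.8, 123, 92.7, 125 and 67.7 CPM under CORT. Isotype + Vehicle and αACBP + Vehicle did not overlap, and under CORT the lowest isotype liver lay among the αACBP livers. In CORT-treated mice Dnaja1 fell by 0.86 (SE 0.2) with αACBP, to 0.55 of the isotype level, with an adjusted p of 0.0291, which passed the test but not the fold limit. Of all genes, 0.958% had an adjusted p of at most 0.05 in that comparison. The adjusted p was 0.00231 with DESeq2, 0.0693 with voom and quality weights and 0.117 when only both groups compared were fitted. With edgeR it lay between 0.0508 and 0.106 without Isotype + CORT liver 1, 4 or 5 or αACBP + CORT liver 3, 4 or 5. In vehicle mice the antibody difference was -0.65 (SE 0.199, adjusted p = 0.0527), and CORT under isotype gave 0.66 (SE 0.199, adjusted p = 0.0647). DESeq2 gave these adjusted p-values of 0.0214 and 0.0279, and the antibody difference also passed with voom (0.016) and with only the groups compared (0.025). CORT under isotype passed with neither, at 0.0761 with voom and 0.0823 with only the groups compared.

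In the GENCODE M39 annotation 90.3% of the canonical Dnaja1 transcript lies opposite exons of Smu1, and the strand setting of the counting is not given in the sources used here. Smu1, a splicing factor, had group means of 34.1 to 42.7 CPM, below the 82.0 to 203 CPM of Dnaja1. Its own differences ran from -0.32 to 0.29, and all of its adjusted p-values were 0.371 or higher. Of the 100-base stretches of Dnaja1, 65% also occur in other genes on either strand, most often in Smu1. Reads of both genes could not be told apart if strand was not used. The part of Smu1 reads in the Dnaja1 differences was not tested.

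Dnajb1 (ENSMUSG00000005483.9, chromosome 8), which encodes HSP40, the J-domain protein that also holds HSF1 back, had another order of group means. Dnajb1 levels were 24.01, 15.8, 12.3, 12.5 and 17.7 CPM in Isotype + Vehicle and 21.8, 19.5, 20.7, 18.05 and 18.7 CPM in αACBP + Vehicle. Under CORT they were 23.1, 33.5, 19.96, 21.9 and 24.1 CPM with isotype and 33.9, 25.0, 25.2, 22.2 and 12.5 CPM with αACBP. All 4 groups overlapped. It was the only transcript of the 10 with a higher mean in αACBP + Vehicle than in Isotype + Vehicle, a difference of 0.26 (SE 0.224, adjusted p = 0.573) that did not pass the test. CORT under isotype gave 0.57 (SE 0.224, adjusted p = 0.174).

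Among the HSP70 proteins, Hspa8 (ENSMUSG00000015656.16, chromosome 9) encodes HSC70, the form that cells make without stress. Hspa8 levels were 1371, 1054, 1052, 1605 and 976 CPM in Isotype + Vehicle and 827, 964, 816, 799.9 and 597 CPM in αACBP + Vehicle. In Isotype + CORT they were 2121, 1389, 1244, 1237 and 1049.9 CPM, and in αACBP + CORT 1363, 919, 1062, 933 and 798 CPM. The vehicle groups did not overlap, with the highest αACBP liver just under the lowest isotype liver. The difference of -0.60 (SE 0.2, adjusted p = 0.0735) did not pass the edgeR test. It also missed the limit with voom (adjusted p = 0.069) and passed it with DESeq2 (adjusted p = 0.026). CORT differences were small, 0.22 (SE 0.199, adjusted p = 0.701) under isotype and 0.34 (SE 0.199, adjusted p = 0.497) under αACBP.

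Hsph1 (ENSMUSG00000029657.15, chromosome 5) encodes HSP110, which exchanges the nucleotide of HSP70. Hsph1 levels were 45.0, 21.5, 20.8, 25.7 and 18.03 CPM in Isotype + Vehicle and 61.0, 58.8, 21.4, 36.1 and 72.4 CPM in Isotype + CORT. With αACBP they were 22.9, 21.3, 8.92, 15.5 and 13.3 CPM under vehicle and 49.6, 14.7, 28.2, 30.9 and 16.5 CPM under CORT. Isotype + CORT spread widely, and all groups overlapped. The differences were 0.93 (SE 0.357, adjusted p = 0.178) for CORT under isotype and -0.84 (SE 0.356, adjusted p = 0.327) for αACBP under CORT.

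The stress-inducible HSP70 pair was low and uneven. Hspa1b (ENSMUSG00000090877.3, chromosome 17) had 8.73, 2.32, 3.40, 4.88 and 2.22 CPM in Isotype + Vehicle and 16.9, 14.3, 3.04, 1.498 and 26.5 CPM in Isotype + CORT. With αACBP it had 6.03, 0.589, 0.181, 1.98 and 0 CPM under vehicle and 3.49, 1.80, 6.08, 5.02 and 3.08 CPM under CORT. The 3 highest livers were all Isotype + CORT, while the other 2 livers of that group lay among the rest. Differences of 1.53 (SE 0.883, adjusted p = 0.449) for CORT under isotype and -1.67 (SE 0.888, adjusted p = 0.477) for αACBP under CORT came with 95% intervals from -0.32 to 3.38 and from -3.53 to 0.19. Hspa1a (ENSMUSG00000091971.3, chromosome 17) stayed at 4.24 CPM or less in every liver and was at 0 counts in 3 livers, 1 each of Isotype + Vehicle, αACBP + Vehicle and αACBP + CORT. Hspa1a and Hspa1b share 56.5% and 49.9% of their 100-base stretches with other genes, mostly with each other, so the split of counts between them is uncertain. Summed, the pair gave 1.49 (SE 0.82, adjusted p = 0.418) for CORT under isotype and -1.57 (SE 0.823, adjusted p = 0.471) for αACBP under CORT.

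Hspb1 (ENSMUSG00000004951.10, chromosome 5) encodes HSP27, a small heat shock protein that holds unfolded clients without ATP. Hspb1 levels were 30.3, 17.2, 14.5, 6.07 and 22.1 CPM in Isotype + Vehicle and 50.9, 18.7, 15.9, 22.2 and 119 CPM in Isotype + CORT. With αACBP they were 22.4, 9.20, 4.94, 12.5 and 3.47 CPM under vehicle and 42.1, 20.7, 23.4, 47.0 and 17.7 CPM under CORT. Isotype + CORT liver 5 stood far above all others. CORT differences were 1.33 (SE 0.608, adjusted p = 0.299) under isotype, and 0.57 without that liver, and 1.52 (SE 0.616, adjusted p = 0.3) under αACBP. The antibody difference under CORT, -0.59 (SE 0.598, adjusted p = 0.802), changed sign to 0.16 without that liver. Of its 100-base stretches 31.6% also occur in Hsp25-ps1 and Gm58342.

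**Figure D2:**
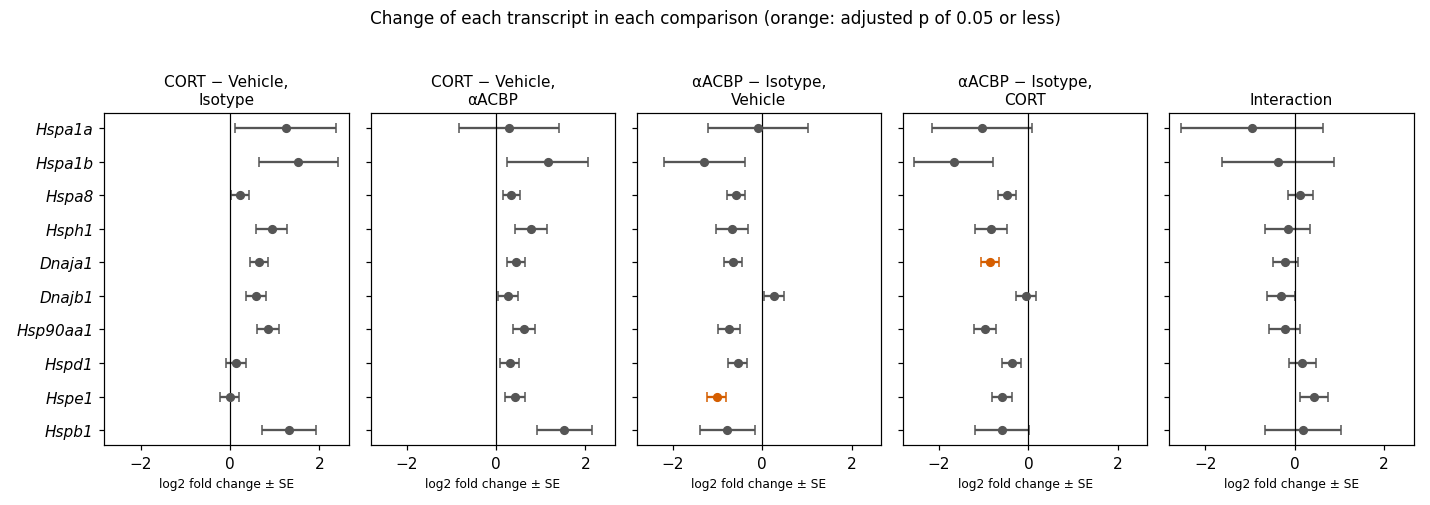
Log2 fold change with its SE (horizontal axes, shared scale) of each transcript in the 4 simple comparisons and their interaction, 20 livers in 1 model, where most points lie right of 0 for CORT and left of 0 for αACBP. Orange marks an adjusted p of 0.05 or less, reached by Hspe1 for αACBP in vehicle mice and by Dnaja1 for αACBP in CORT-treated mice.

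Read together, the 10 transcripts had a median difference of 0.75 for CORT under isotype, 0.43 for CORT under αACBP, -0.66 for αACBP under vehicle and -0.72 for αACBP under CORT, where the median of all genes tested lay between -0.02 and 0.01. Fitted levels were higher with CORT for 9 of 10 under isotype and for 10 of 10 under αACBP, and lower with αACBP for 9 of 10 under vehicle and 10 of 10 under CORT. Each comparison shares livers with another, so these counts are not independent. Past both limits, edgeR called 0 of 10 for CORT under isotype (1.94% of all genes), 0 of 10 for αACBP under CORT (0.597%) and 0 of 10 for CORT under αACBP (0.212%). DESeq2 and voom with quality weights also called 0 in these 3 comparisons, and at an unadjusted p under 0.05 without a fold limit there were 5 (15.6% of all genes), 5 (12.5%) and 4 (12.7%). Groups that did not overlap were found for αACBP under vehicle in 4 of 10, Hspa8, Dnaja1, Hsp90aa1 and Hspe1, all lower, where 7.13% of all genes did not overlap and 3.63% of all genes were separate and lower. No pair of groups was separate for any of the 10 in the other 3 simple comparisons, where 5.04% (CORT under isotype), 3.22% (αACBP under CORT) and 2.74% (CORT under αACBP) of all genes were separate.

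Averaging over the other treatment, a contrast added after the data had been seen, uses all 20 livers at once, and the adjusted p alone, with no fold limit, made the call. Averaged over vehicle and CORT, 4 of the 10 fell with αACBP, against 3.76% of all genes lower and 7.62% in either direction. Dnaja1 fell by 0.76 (SE 0.141, adjusted p = 0.00282), Hspe1 by 0.81 (SE 0.155, adjusted p = 0.00344), Hsp90aa1 by 0.86 (SE 0.176, adjusted p = 0.00537) and Hspa8 by 0.53 (SE 0.141, adjusted p = 0.0221). Dnaja1, Hspe1 and Hsp90aa1 stayed at an adjusted p of 0.0144 or less whichever liver was left out, and Hspa8 reached 0.051 without αACBP + CORT liver 5. Hspd1 (-0.47, SE 0.151) missed the limit with edgeR (adjusted p = 0.056) and passed it with DESeq2 (0.0224) and voom (0.0343). Hsph1 (-0.76, SE 0.253) missed it with edgeR (0.0704) and voom (0.171) and passed it with DESeq2 (0.022). Without 1 liver, edgeR gave 0.0341 to 0.137 for Hspd1 and 0.0224 to 0.149 for Hsph1. Averaged over both antibodies, 2 of the 10 rose with CORT, against 2.2% of all genes higher and 4.23% in either direction: Hsp90aa1 by 0.74 (SE 0.176, adjusted p = 0.0176) and Dnaja1 by 0.55 (SE 0.141, adjusted p = 0.0231). Dnaja1 then reached 0.052 without αACBP + Vehicle liver 3 and 0.0633 without αACBP + CORT liver 1. Hsph1 (0.85, SE 0.253) and Hspb1 (1.42, SE 0.433) had larger averaged CORT differences that missed the limit with edgeR, at adjusted p-values of 0.0603 and 0.0761. They also missed it with voom, at 0.0794 and 0.0589, and passed it with DESeq2, at 0.0173 and 0.0169. Leaving out 1 liver gave edgeR values from 0.0167 to 0.119 for Hsph1 and from 0.0402 to 0.142 for Hspb1. Without Isotype + CORT liver 5 the Hspb1 difference was 1.045. The 6 changes that passed with edgeR were all under the fold limit, which 0.541% (αACBP) and 1.23% (CORT) of all genes passed together with the adjusted p. At an unadjusted p under 0.05, 7 (αACBP, 22.4% of all genes) and 6 (CORT, 18.3%) of the 10 passed.

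Whether CORT acted differently under αACBP was tested by the interaction, for which edgeR, DESeq2 and voom called 0 of 10, as against 0.143% of all genes, and 0 of 10 also had an unadjusted p under 0.05 (10.6% of all genes). The interaction was 0.43 (SE 0.309, adjusted p = 0.7) for Hspe1 and -0.22 (SE 0.35, adjusted p = 0.898) for Hsp90aa1, with 95% intervals from -0.21 to 1.06 and from -0.94 to 0.50. Mice with both treatments were also compared with mice that had neither. Again 0 of 10 were called by all 3 tools, where 0.0684% of all genes were called, and 2 had an unadjusted p under 0.05 (7.59% of all genes). Hsp90aa1 (-0.12, SE 0.248) and Dnaja1 (-0.20, SE 0.199) had nearly equal means in these groups. Hspe1 was lower in every treated liver, where the groups of 3.31% of all genes were separate. Its difference was -0.60 (SE 0.219), with an adjusted p of 0.381 with edgeR, 0.192 with DESeq2 and 0.0173 with voom.

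**Figure D3:**
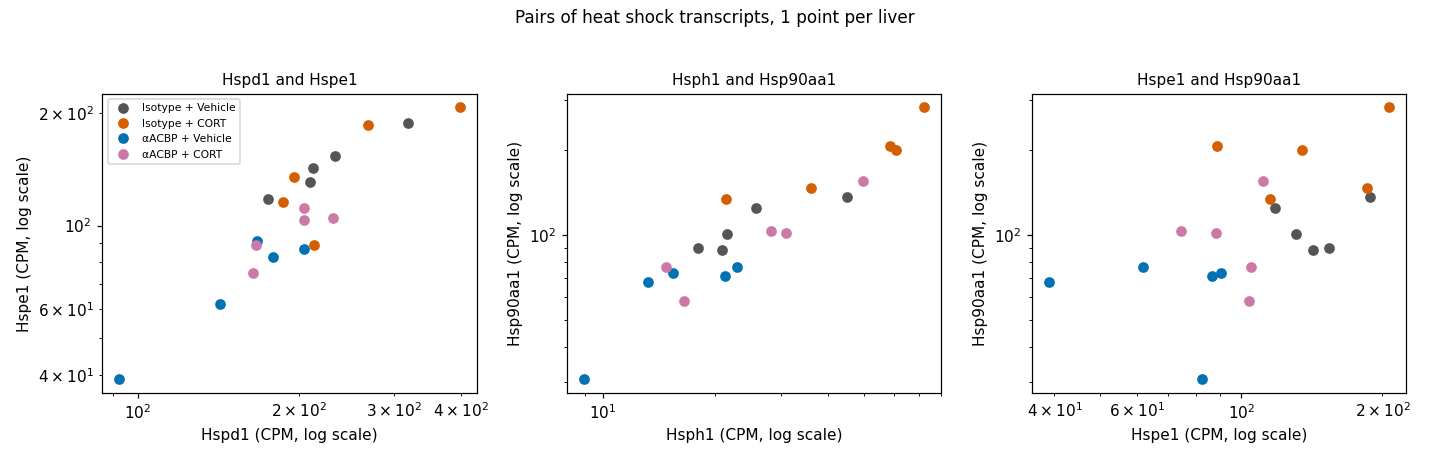
CPM in each of 20 livers on log scales for 3 pairs of transcripts, coloured by group. Hspd1 and Hspe1, and Hsph1 and Hsp90aa1, lie along a line within and across groups, whereas Hspe1 and Hsp90aa1 spread more widely.

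Correlations of log2 CPM were computed for 45 pairs after subtracting each group's mean, as a description over 20 livers that share library and treatment. The median was 0.36, from -0.05 to 0.88, with 19 pairs above 0.5. Pairs of other liver genes were not correlated for comparison, so whether these values are particular to the 10 was not tested. The highest was that of Hspd1 with Hspe1, 0.88, the pair that shares 1 interval of promoter and 1 folding chamber. Next came Hsph1 with Hsp90aa1, 0.88, and Hsph1 with Dnaja1, 0.76. Between the chaperonin pair and the other 3, the 6 values ran from 0.01 (Hspe1 with Hsp90aa1) to 0.37 (Hspe1 with Dnaja1). With the cytosolic Hspb1 the chaperonin pair had higher values, 0.54 for Hspd1 and 0.53 for Hspe1. The mean standardized level of the 10 was highest in Isotype + CORT, at 0.04 to 1.52 SD with a median of 0.80, and lowest in αACBP + Vehicle, at -1.74 to -0.36 SD with a median of -0.62. Isotype + Vehicle ranged from -0.28 to 0.81 SD and αACBP + CORT from -0.58 to 0.64 SD.

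The genes most like that mean level were sought among 12137 genes over the 20 livers. The closest was Stip1, which encodes HOP, the adaptor that joins HSP70 to HSP90, with a correlation of 0.94 over livers and 0.93 after subtracting group means. Hsp90ab1, the constitutive HSP90β, came ninth with 0.89 and 0.77. The others of the first 10 were Cpox (haem synthesis), Tmem33, Pdha1 (pyruvate dehydrogenase), Naa50, Selt, F9 (coagulation factor IX), Mttp (lipoprotein assembly) and Hsd11b1, the enzyme that regenerates active glucocorticoid in liver, with 0.89 to 0.92. Stip1 levels were 91.6, 68.7, 62.7, 72.1 and 71.8 CPM in Isotype + Vehicle and 57.5, 49.9, 46.1, 51.7 and 41.9 CPM in αACBP + Vehicle, without overlap, and fell by 0.57 (SE 0.16, adjusted p = 0.0351) in vehicle mice. The mean level by which Stip1 was chosen was itself lowest in αACBP + Vehicle. Its fall and separation there were therefore partly selected for and are a description only.

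**Figure D4:**
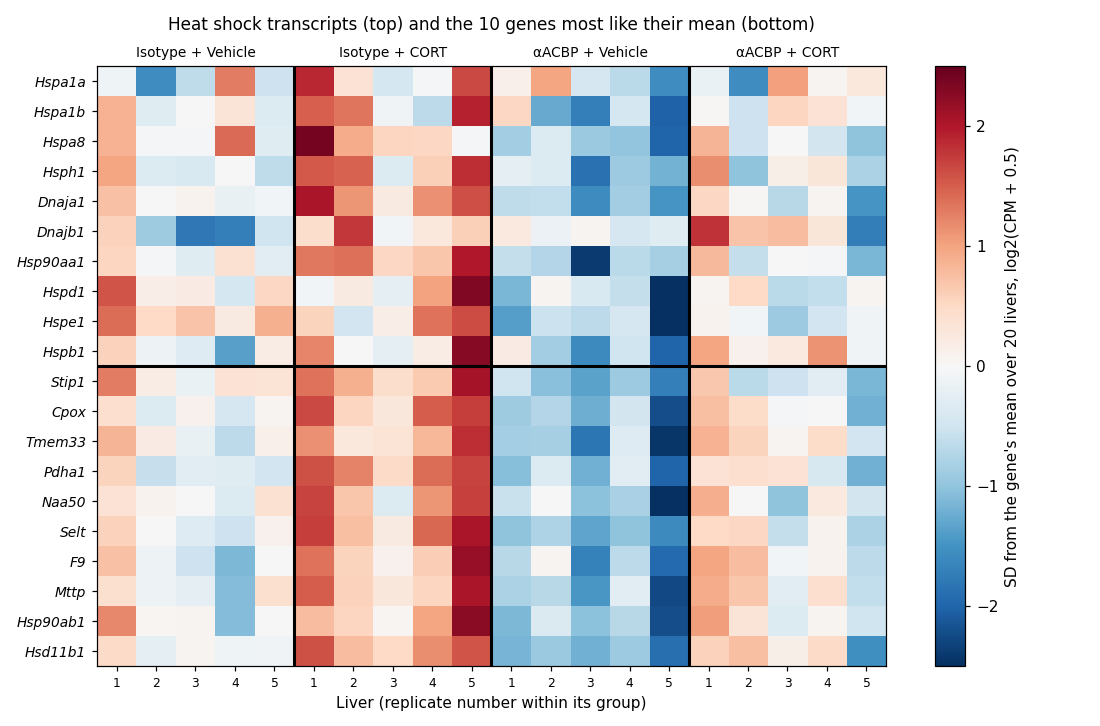
Standardized log2(CPM + 0.5) of the 10 heat shock transcripts (upper rows) and the 10 genes most like their mean (lower rows) in 20 livers, by group, with red above and blue below the gene's mean over all livers. Isotype + CORT livers 1 and 5 are the reddest columns and αACBP + Vehicle livers 3 and 5 the bluest, while Dnajb1 departs from the others.

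Other genes of the chaperone system were taken from lists. Of 7 heat shock factors and their inhibitors, 2 rose with αACBP in vehicle mice and 0 fell, where 5.14% of all genes passed the adjusted p. Hsf1, which encodes the factor that binds heat shock elements, had 33.5, 21.1, 30.6, 31.8 and 19.9 CPM in Isotype + Vehicle and 63.0, 49.5, 45.2, 30.0 and 49.5 CPM in αACBP + Vehicle, a rise of 0.79 (SE 0.202, adjusted p = 0.0244). Binding or activity of HSF1 was not measured. Hsf4, a related factor known from the lens, rose by 1.42 (SE 0.217, adjusted p = 0.00215), from 16.4 ± 2.70 to 43.7 ± 6.30 CPM (mean ± SD, n = 5). αACBP + Vehicle was also the group in which 9 of the 10 heat shock transcripts had their lowest mean. In GENCODE M39 55.4% of the canonical Hsf1 transcript lies opposite other genes, among them Dgat1, an enzyme of triglyceride synthesis, which also rose, by 0.72 (SE 0.188, adjusted p = 0.0264), and reads of both could not be told apart if strand was not used.

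Of 23 co-chaperones of HSP70 and HSP90, 1 rose and 3 fell with αACBP in vehicle mice, where 5.14% of all genes passed the adjusted p. St13, which encodes HIP and stabilizes HSP70 on its client, fell by 0.53 (SE 0.145, adjusted p = 0.0306), and Ptges3, the HSP90 co-chaperone p23, by 0.68 (SE 0.195, adjusted p = 0.0377), beside Stip1. Tomm34, a co-chaperone of import into mitochondria, rose by 0.79 (SE 0.237, adjusted p = 0.0469). Fkbp5, a glucocorticoid-induced HSP90 co-chaperone that dampens the receptor, was the only one of the 23 to pass with CORT under isotype, where 3.2% of all genes did. Its levels were 33.2, 45.2, 40.8, 26.1 and 51.1 CPM in Isotype + Vehicle and 136.5, 142, 67.5, 177 and 117 CPM in Isotype + CORT, a rise of 1.70 (SE 0.265, adjusted p = 0.000722). Under αACBP its CORT difference was 0.28 (adjusted p = 0.72), and the interaction, -1.42 (adjusted p = 0.0935), did not pass the test.

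Of 17 other mitochondrial chaperones and proteases, 2 fell with αACBP in vehicle mice, where 2.36% of all genes fell past the adjusted p. They were Grpel1, the nucleotide exchange factor of the matrix HSP70, by 0.76 (SE 0.218, adjusted p = 0.0379), and Clpx by 1.57 (SE 0.238, adjusted p = 0.00215). Clpx, the unfoldase of the matrix protease ClpXP, had 275, 193, 199, 204 and 195.5 CPM in Isotype + Vehicle, 64.3, 76.45, 52.2, 109.5 and 56.3 CPM in αACBP + Vehicle and 243, 236, 247, 224 and 84.6 CPM in αACBP + CORT. Of αACBP + CORT, liver 5 lay within the range of αACBP + Vehicle. Clpx passed the interaction test, at 2.02 (SE 0.332, adjusted p = 0.00521). It rose with CORT under αACBP by 1.53 (SE 0.238, adjusted p = 0.00912), where 0.305% of all genes passed the adjusted p, and its CORT difference under isotype was -0.49 (adjusted p = 0.302).

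Of 15 chaperones of the endoplasmic reticulum, whose main inducer is the unfolded protein response of that compartment, all 15 had a lower fitted level with αACBP in vehicle mice (median -0.81). Past the adjusted p, 6 fell, where 2.36% of all genes did: Dnajb9, Pdia4, Hspa5, Hsp90b1, Pdia3 and Manf. Dnajb9 fell by 1.43 (SE 0.392, adjusted p = 0.0363) and was the 1 past both limits. Hspa5, which encodes BiP, the HSP70 of that compartment, had 557.5, 371, 299.9, 333 and 442 CPM in Isotype + Vehicle and 269, 209, 170.3, 239 and 130.1 CPM in αACBP + Vehicle, without overlap, and fell by 0.98 (SE 0.281, adjusted p = 0.042). Under CORT all 15 were again lower with αACBP (median -0.51), and 1 fell, Manf by 0.96 (SE 0.237, adjusted p = 0.0449), where 0.324% of all genes fell. The cytosolic chaperonin CCT and prefoldin, 15 genes, had a median of -0.29 for αACBP in vehicle mice. There edgeR passed 0 of them on the adjusted p, DESeq2 3 and voom 4, with 6 at an unadjusted p under 0.05, which 20.6% of all genes had with edgeR. Under CORT 1 passed, Cct8, a subunit of the CCT ring, which fell by 0.57 (SE 0.143, adjusted p = 0.047). For αACBP in vehicle mice edgeR passed 0 of 23 other cytosolic J-domain proteins (DESeq2 3, voom 1, and 6 at an unadjusted p under 0.05). It passed 0 of 10 rows of other cytosolic HSP70, HSP110 and HSP90 genes, where Hspa14 has 2 identifiers (DESeq2 1, voom 0, and 4 unadjusted), and 0 of 5 other small heat shock proteins (0 by all of these). For αACBP in vehicle mice 5.14% of all genes passed the adjusted p alone with edgeR. That share is not given for DESeq2 and voom, so their counts in these lists stand without a reference.

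**Figure D5:**
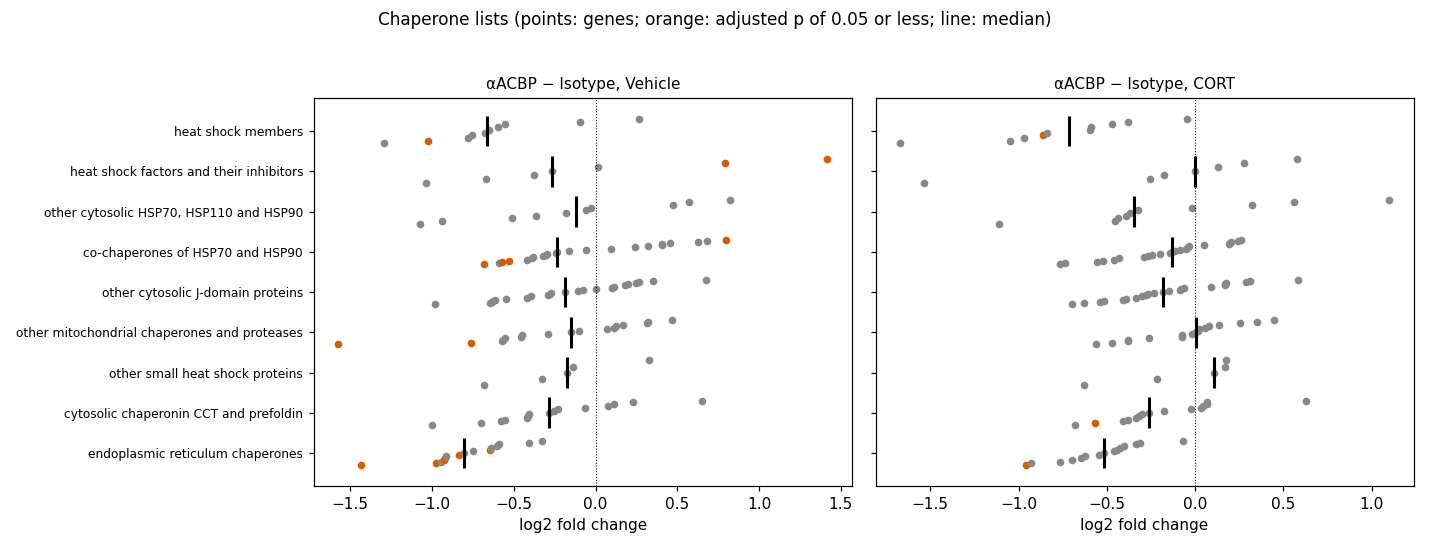
Log2 fold change (horizontal axes) of every tested gene of 8 chaperone lists and of the 10 heat shock transcripts, for αACBP in vehicle mice (left) and in CORT-treated mice (right), where points are genes, orange marks an adjusted p of 0.05 or less, and the black line is the list's median. The endoplasmic reticulum list lies left of 0 throughout, with medians of -0.81 and -0.51.

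Other measures moved with the groups. Clock genes were among them, and the time of day at which livers were taken is not given in the sources used here. For αACBP in vehicle mice 4 of 17 clock genes rose and 2 fell, where 5.14% of all genes passed the adjusted p. Dbp, chosen after its values were seen, a clock output gene with a large daily swing, had 5.42, 17.2, 21.8, 23.5 and 11.2 CPM in Isotype + Vehicle, 18.7, 22.2, 144, 40.3 and 114 CPM in Isotype + CORT, 214, 236, 610.4, 151 and 360.4 CPM in αACBP + Vehicle and 9.60, 6.43, 7.98, 6.97 and 194 CPM in αACBP + CORT. Arntl (Bmal1), which peaks at the opposite phase and was chosen in the same way, fell by 2.11 (SE 0.433, adjusted p = 0.0108) and Dbp rose by 4.31 (SE 1.06, adjusted p = 0.0287). Every αACBP + Vehicle liver and αACBP + CORT liver 5 had more Dbp than all Isotype + CORT livers, and the other 4 αACBP + CORT livers had less than all of them. The part of clock state or sampling time in the heat shock differences was not tested.

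Markers of other liver cells also differed. All 8 Kupffer cell and macrophage markers were lower with CORT under isotype, 5 of them past both limits, where 1.43% of all genes were lower past both. Their summed level was 150 to 417 CPM in Isotype + CORT against 415 to 808 CPM in Isotype + Vehicle, 537 to 912 CPM in αACBP + Vehicle and 542 to 740.4 CPM in αACBP + CORT. The 7 stellate cell markers summed to 331 to 422 CPM in αACBP + Vehicle and 378 to 516 CPM in Isotype + Vehicle. With αACBP in vehicle mice 3 of them fell, where 2.36% of all genes fell past the adjusted p. The part of these cell types in the heat shock differences was not tested. For αACBP in vehicle mice edgeR passed 0 of 8 hepatocyte markers (DESeq2 1, voom 1). An unadjusted p under 0.05 was found for 4 of them, and for 20.6% of all genes with edgeR. The adjusted p alone was passed by 5.14% of all genes with edgeR, a share not given for DESeq2 and voom. The 8 markers summed to 40417 to 97185 CPM with αACBP and 73412 to 121882 CPM with isotype. Without αACBP + Vehicle liver 5, which had the lowest sum, the averaged αACBP differences were -0.73 for Hspe1 (adjusted p = 0.00423), -0.72 for Dnaja1 (0.00473), -0.87 for Hsp90aa1 (0.0108) and -0.49 for Hspa8 (0.0356). Leaving out 1 liver does not adjust the others for hepatocyte content. The part of hepatocyte content in the heat shock differences was not tested.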

How the data were processed

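RNA of 20 mouse livers was sequenced by the authors as read pairs, which they aligned with HISAT2 and counted on genes with HTSeq, whose union mode was set to keep pairs that fit more than 1 gene. The labels name the build mm10 and the study's methods GRCm39, so no coordinates of genes are given here beyond those of the promoter table (GRCm38.p6). The annotation release and strand setting are not given in the sources used here. The deposited values were raw counts per gene, with summary lines for pairs on no gene, pairs that fit more than 1 gene and pairs not aligned uniquely. These lines were left out of library sizes. Of the sum over genes and lines, a median of 38.8% lay on genes. Between 42.3% and 45.2% lay on no gene, and 5.92% to 10.6% did not align uniquely.

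In R 4.3.3, counts were scaled by TMM, genes were filtered with filterByExpr, and 1 coefficient per group was fitted without covariates by the robust quasi-likelihood method of edgeR 4.0.16, with Benjamini-Hochberg adjustment over 16071 genes. DESeq2 1.42.0 and limma 3.58.1 (voom) were alternatives. The fit was tested on simulated counts. The 10 genes and all lists were chosen with earlier results of these data known. Genes were named if they were among the 10, were called in a chaperone list (up to 5 per list), or were most like the mean of the 10. Genes named on the adjusted p alone, and Smu1, Dgat1, Dbp and Arntl, fell outside that rule and were named after their values were seen. Mice were taken as separate animals by their labels. Replicate numbers did not pair the samples. Within groups, libraries differed far beyond sampling noise, with a chi-square of at least 12.4 per degree of freedom in each of 40 pairs.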

Additional observations from a re-analysis of the deposited data

Results flagged for a closer look

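Each of the 10 transcripts was checked for a single outlying liver in each of the 4 groups by Dixon's test, 40 checks in all, of which chance alone would mark about 1 in 20. In 3 of them 1 liver stood apart. Hsph1 was at 45.0 CPM in Isotype + Vehicle liver 1, where the next highest liver had 25.7 CPM. Dnaja1 was at 163 CPM in the same liver, where the next had 126 CPM. Hsp90aa1 was at 30.7 CPM in αACBP + Vehicle liver 3, where the next lowest liver had 68.0 CPM.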

How the results depend on the processing

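Of 1765 values of single transcripts under all alternatives, 1723 kept their sign and 42 changed it, none of these with a reported difference over 1 SE from 0. Of the planned counts over the 10, 1 was called instead of 0 with unadjusted p-values for CORT under isotype and for CORT under αACBP (Hspb1 in each), and 1 instead of 0 without the fold limit for αACBP under CORT (Dnaja1). Of all genes, 5.54%, 2.46% and 0.958% were called under these settings, in that order. With voom, 0 instead of 1 were called for αACBP under vehicle, since Hspe1 then stood at -0.90 (adjusted p = 0.00204). The averaged contrasts, chosen after seeing the data, gave 6 (CORT) and 7 (αACBP) with unadjusted p-values, 0 and 0 with the fold limit, and 4 (CORT) and 6 (αACBP) with DESeq2. Of all genes, 18.3% (CORT) and 22.4% (αACBP) passed with unadjusted p-values, and 1.23% and 0.541% with the fold limit. With DESeq2, 1085 (CORT) and 1898 (αACBP) of 24419 genes passed. Leaving out each liver in turn gave 0 to 1 for αACBP under CORT (Hsp90aa1 without Isotype + CORT liver 3 or αACBP + CORT liver 1), 0 to 1 for αACBP under vehicle, 1 to 4 for averaged CORT, 3 to 6 for averaged αACBP and 0 for the other 4 comparisons. Calls among all genes then ran from 52 of 16478 to 191 of 16462 for αACBP under CORT. They ran from 87 of 16478 to 343 of 16458 for αACBP under vehicle. For averaged CORT they ran from 388 of 16507 to 920 of 16454, and for averaged αACBP from 592 of 16515 to 1574 of 16462. With the replicate number as a block, the 6 planned counts were the same, with 1 for αACBP under vehicle and 0 for the others, and the averaged contrasts gave 3 (CORT) and 5 (αACBP). Of 16071 genes, that block gave 185 for αACBP under vehicle, 559 for averaged CORT and 867 for averaged αACBP. The replicate numbers did not pair the samples: livers of the same number in different groups correlated at -0.10 to 0.10, with 0 of 30 pairs over 0.1. Sample-to-sample spread (common coefficient of variation 0.481) and the low counts of Hspa1a and Hspa1b limit what could be detected. Causes of these shifts were not tested.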
